A study of Homo sapiens with 10 samples.

Results

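The nuclear lamina is described here through 9 genes in PC-3 cells, a human prostate carcinoma line that grows without androgen. They are the lamins LMNB1, LMNB2 and LMNA, the membrane proteins LBR, EMD, LEMD3 and SUN2, TMPO, which has membrane forms, and BANF1, which ties chromatin to several of these. Members were taken by gene name from the scanner files, which matched 8 of the 9, and SUN2, listed there under its older name UNC84B, was matched through its transcript. They had 11 probes of the 41000 on the array and are 9 of the 28090 genes it names. All 11 member probes were well above background on all 10 arrays, and none was saturated. LMNB1 was chosen by its measured signal on these arrays, which was far lower after drug treatment and departed from additivity, so its values are given as a description without a test in every comparison. The other 8 members were tested, although they too were chosen with earlier results of these data known.

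Messenger RNA was measured on single-color Agilent whole-genome arrays, with 5 groups of 2 arrays that the labels call biological replicates. One group was harvested untreated at 0 h, and the other 4 were kept for 24 h with the solvent DMSO, with 60 µM luteolin (a plant flavonoid), with 60 µM gefitinib (an inhibitor of the EGF receptor kinase) or with 60 µM of each together. The study set the 24 h arrays against 0 h, and here the drug-treated arrays were set against DMSO at 24 h, with 0 h given beside them. Groups follow the sample labels. The scanner file names of the 6 drug-treated arrays carry another treatment: arrays labelled luteolin have files named for gefitinib, arrays labelled gefitinib have files named for the combination, and arrays labelled luteolin+gefitinib have files whose shortened name was read as luteolin. Every drug direction below is therefore that of the arrays with that label, and the values under the file names are given after the comparisons.

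The lamina is a meshwork of intermediate filament proteins under the inner nuclear membrane. B-type lamins (LMNB1, LMNB2) stay farnesylated and attached to the membrane, whereas LMNA gives rise to lamins A and C, which also occur in the nuclear interior. LBR and the LEM-domain proteins EMD, LEMD3 and the membrane forms of TMPO hold chromatin and lamins at the membrane. BANF1 bridges LEM domains and DNA, and SUN2 is the inner membrane part of the LINC complex that couples the lamina to the cytoskeleton. Loss of LMNB1 is widely used as a mark of senescent cells, and LMNB1 and TMPO are often listed among the genes of dividing cells.

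The members that were called against DMSO, and LMNB1, are shown with the DNA before their annotated start, because some of them moved together and others apart. The sequences are RefSeq's for GRCh38.p14, 250 bases long, 5′ to 3′ on the strand of the gene. Capitals mark any match on either strand to the CCAAT box, to GGGCGG of the GC box, to TTTGAA of the cell cycle homology region or to TTTCCCGC of E2F sites, so that CCAAT on the other strand reads ATTGG here. Matches that overlap are joined in 1 run of capitals.
LMNB1, chr5:126776373-126776622: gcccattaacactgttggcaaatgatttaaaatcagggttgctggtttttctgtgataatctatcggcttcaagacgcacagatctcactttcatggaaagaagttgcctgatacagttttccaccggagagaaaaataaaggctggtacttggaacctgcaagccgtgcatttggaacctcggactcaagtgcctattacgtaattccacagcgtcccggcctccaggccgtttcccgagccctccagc
LMNB2, chr19:2456960-2457209: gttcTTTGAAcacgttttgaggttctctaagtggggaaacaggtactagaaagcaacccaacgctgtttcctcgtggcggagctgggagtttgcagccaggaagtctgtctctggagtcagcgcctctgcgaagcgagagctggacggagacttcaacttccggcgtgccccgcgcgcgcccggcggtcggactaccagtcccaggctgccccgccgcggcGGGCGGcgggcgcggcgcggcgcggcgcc
TMPO, chr12:98515323-98515572: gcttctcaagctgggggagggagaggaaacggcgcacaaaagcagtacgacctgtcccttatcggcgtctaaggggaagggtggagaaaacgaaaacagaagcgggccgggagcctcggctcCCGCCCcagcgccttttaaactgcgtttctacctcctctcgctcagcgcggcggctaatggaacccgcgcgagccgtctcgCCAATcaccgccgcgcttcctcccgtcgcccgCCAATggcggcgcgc
LBR, chr1:225428822-225429071: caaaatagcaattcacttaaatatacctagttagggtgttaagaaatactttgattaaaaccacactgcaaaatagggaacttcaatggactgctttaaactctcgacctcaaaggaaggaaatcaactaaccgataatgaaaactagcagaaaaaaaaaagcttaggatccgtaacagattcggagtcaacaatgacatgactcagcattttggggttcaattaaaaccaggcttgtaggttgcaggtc
LEMD3, chr12:65169333-65169582: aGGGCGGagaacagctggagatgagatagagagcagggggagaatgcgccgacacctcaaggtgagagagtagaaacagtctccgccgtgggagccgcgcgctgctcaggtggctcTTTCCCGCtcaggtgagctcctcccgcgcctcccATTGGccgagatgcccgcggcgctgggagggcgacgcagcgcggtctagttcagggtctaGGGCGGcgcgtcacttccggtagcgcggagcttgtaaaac
LMNB1 has a second annotated start further into the gene. Its window of 250 bases holds 1 CCAAT and 4 GGGCGG matches, with a GC content of 75.6%, and the 30 bases around the CCAAT match are shown.
LMNB1, second start, chr5:126776986-126777015: tgcctgctccccATTGGcccatggtagtca
Before the first LMNB1 start there is no match to any of the 4 motifs, and the GC content is 48.4%. The LBR window has none either and a GC content of 36.8%, and nor does that of BANF1, which was called between drug labels and is not shown. LMNB2 and TMPO, which both fell on the arrays labelled luteolin, differ here: TMPO has 2 CCAAT matches and 1 GGGCGG match, and LMNB2 has 1 GGGCGG and 1 TTTGAA match. LEMD3 has 1 TTTCCCGC, 1 CCAAT and 2 GGGCGG matches. Over the 35116 windows of the table, 32% hold CCAAT, 42.6% hold GGGCGG, 13.3% hold TTTGAA and 1.39% hold TTTCCCGC. Of the 9 members, 6, 7, 2 and 2 hold these motifs in at least 1 of their windows, and a member with several annotated starts has more windows in which to hold one. A match is a description of the letters only.

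The arrays differed in brightness, with a 75th percentile of the processed signal between 539.8 and 1402, and between 63.4 and 70.4% of probes were well above background. All values below are log2 signals relative to the 75th percentile of their own array, called relative signals, and compare 1 probe across arrays. Replicates of the luteolin+gefitinib label were the most unlike, with a median SD over the probes kept of 0.25, against 0.09 for DMSO and 0.18 for the gefitinib label. The epithelial markers KRT8, KRT18, KRT19 and EPCAM were well above background on all 10 arrays, as fits the label. Against the label, TMPRSS2 and 1 of 3 probes of KLK3, which are driven by androgen in prostate cells, were above background on all 10 arrays. Among 9 markers of blood, endothelium and fibroblasts, PTPRC, HBB and DCN were above background on 0 arrays, CDH5 and COL1A2 on 1 and 2, and CD3E, PECAM1, COL1A1 and LUM on 8 to 10, each with a relative signal of at most -2.01.

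Among the B-type lamins, LMNB1 was low on the arrays of all 3 drug labels, and LMNB2 fell with the luteolin label. The LMNB1 probe lies at chr5:126200382-126200441 (hg18, the build of the array design). Its relative signal was -0.12 and -0.19 at 0 h, 0.87 and 0.57 with DMSO, -2.32 and -2.96 with the luteolin label, -4.01 and -4.10 with the gefitinib label, and -1.84 and -2.99 with the luteolin+gefitinib label. No drug-treated array reached the lowest array at 0 h or with DMSO, and the gefitinib label was lowest. The processed signal was 2471 and 1905 with DMSO and 40.5 and 36.6 with the gefitinib label, so the lowest values rest on dim spots. Against DMSO, LMNB1 was 10.3-fold lower with the luteolin label, 27.4-fold lower with the gefitinib label and 8.80-fold lower with the luteolin+gefitinib label. DMSO itself was 1.84-fold above 0 h, and against 0 h the drug-labelled groups were 5.60-fold, 14.9-fold and 4.78-fold lower. These are bulk arrays, in which fewer cells of a kind and less RNA per cell cannot be told apart. With normexp background correction and an offset of 50 the log2 difference of the gefitinib label from DMSO was -3.45 in place of -4.77. Within slide 2, which holds 1 array of each 24 h group, the differences from DMSO were -3.20, -4.88 and -2.71 on the log2 scale, and within slide 3 those of the luteolin and luteolin+gefitinib labels were -3.53 and -3.56.

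LMNB2, the other B-type lamin (chr19:2379183-2379242, hg18), had a relative signal of 0.52 and 0.53 with DMSO, -0.91 and -0.82 with the luteolin label, 1.03 and 1.10 with the gefitinib label, and -0.03 and -0.01 with the luteolin+gefitinib label. Each drug label was apart from DMSO on both of its arrays, and the gefitinib label lay on the other side of DMSO from the remaining 2. LMNB2 fell by 1.39 ± 0.14 on the log2 scale with the luteolin label (SE of the limma fit, adjusted p = 0.000834). With the gefitinib label it was higher by 0.54 (adjusted p = 0.0138) and with the luteolin+gefitinib label its log2 change was -0.55 (adjusted p = 0.0187), both past the adjusted p and under 2-fold. The fall with the luteolin label was -1.43 within slide 2 and -1.35 within slide 3. The 2 B-type lamins therefore had opposite signs with the gefitinib label, as measured on the same 2 arrays. The rise of LMNB2 ran from 0.41 to 0.58 over the limma alternatives that keep the labels and DMSO. With that label the median log2 change of all genes was 0.22, and 32.9% of them were higher at the adjusted p alone.

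**Figure D1:**
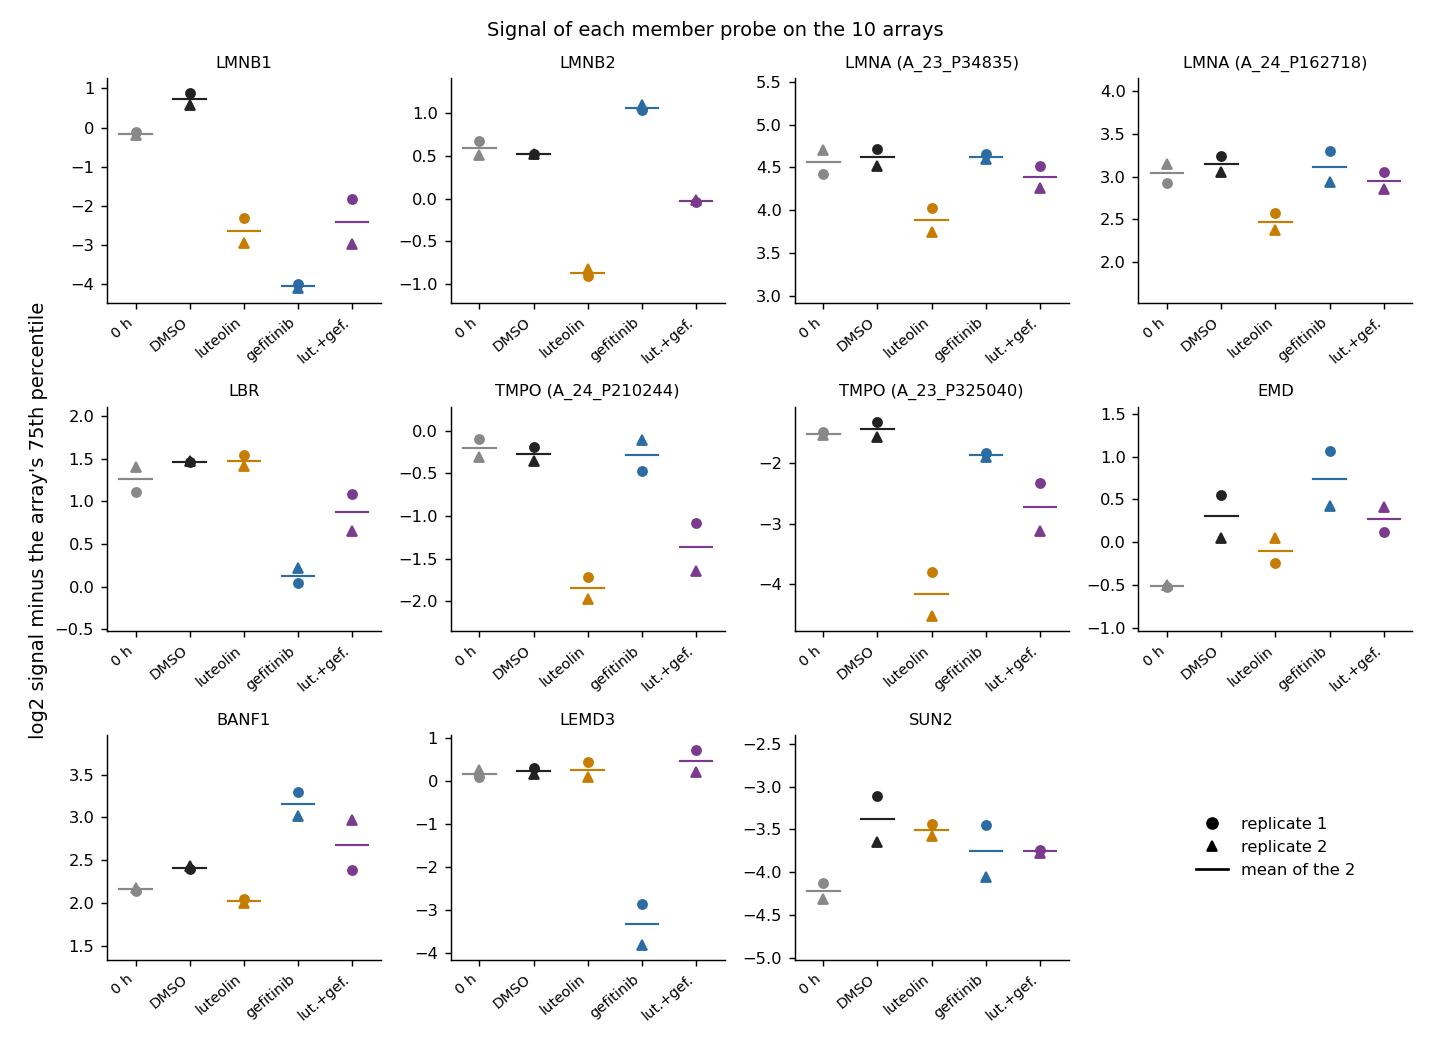
Relative signal (log2 signal minus the 75th percentile of the array, y axis, with its own range in each panel) of the 11 member probes in the 5 groups of the labels (x axis); each point is 1 array and the bar is the mean of the 2. LMNB1 is low with all 3 drug labels, from -1.84 to -4.10, whereas LEMD3 is low with the gefitinib label alone, at -2.85 and -3.80.

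LMNA, the source of lamins A and C, was lower on both probes with the luteolin label and by less than 2-fold. The first probe (A_23_P34835, chr1:154374095-154374154, hg18) had a relative signal of 4.71 and 4.52 with DMSO, 4.03 and 3.75 with the luteolin label, 4.66 and 4.60 with the gefitinib label, and 4.52 and 4.26 with the luteolin+gefitinib label. Its log2 change with the luteolin label was -0.73 ± 0.19 (SE, adjusted p = 0.0225), and that of the second probe (A_24_P162718, chr1:154373402-154373545) was -0.68 (adjusted p = 0.0331). Over the limma alternatives that keep the labels and DMSO these adjusted p ran from 0.00938 to 0.153 and from 0.0172 to 0.196. With the gefitinib label the first probe differed from DMSO by 0.01, with a 95% interval from -0.41 to 0.43. This last value turned to -0.63 (adjusted p = 0.048) under quantile normalization, in a range of adjusted p from 0.048 to 0.97 over the same alternatives. With the luteolin+gefitinib label the log2 changes were -0.23 and -0.19 (adjusted p = 0.351 and 0.433).

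LBR, a membrane protein that binds lamin B and heterochromatin and also has a sterol reductase domain, fell with the gefitinib label. The relative signal of its probe (chr1:223655905-223655964, hg18) was 1.46 and 1.47 with DMSO, 1.54 and 1.41 with the luteolin label, 0.04 and 0.22 with the gefitinib label, and 1.08 and 0.66 with the luteolin+gefitinib label. The luteolin label overlapped DMSO, and the gefitinib label was below every other group. The fall was 2.51-fold, or -1.33 ± 0.19 on the log2 scale (SE, adjusted p = 0.00133). For the luteolin+gefitinib label the log2 change was -0.59 (adjusted p = 0.0399), under 2-fold, and for the luteolin label it was 0.01, with a 95% interval from -0.43 to 0.45. Slide 2 alone gave -1.41 for the gefitinib label. Within slide 1 the log2 difference of that label from the 0 h array was -0.90, under 2-fold.

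TMPO encodes the lamina-associated polypeptides 2, not all of which are membrane proteins. It was read by 2 probes, one designed on transcript variant 1 (A_23_P325040, chr12:97452391-97452450, hg18) and one on variant 2 (A_24_P210244, chr12:97465702-97465761), which stands for the gene where genes are counted. Both fell with the luteolin label. The variant 2 probe had a relative signal of -0.19 and -0.36 with DMSO, -1.72 and -1.97 with the luteolin label, -0.48 and -0.11 with the gefitinib label, and -1.08 and -1.64 with the luteolin+gefitinib label. The variant 1 probe had -1.31 and -1.56 with DMSO, -3.80 and -4.53 with the luteolin label, -1.83 and -1.89 with the gefitinib label, and -2.32 and -3.12 with the luteolin+gefitinib label. On both probes the luteolin label was lowest, the combination was next, and neither overlapped DMSO. The processed signal of the variant 1 probe with the luteolin label was 84.0 and 45.1, so its lowest values rest on dim spots. The log2 change with the luteolin label was -1.57 ± 0.23 for variant 2 (SE, adjusted p = 0.00262) and -2.73 ± 0.30 for variant 1 (adjusted p = 0.00102), the latter -1.87 under normexp. With the gefitinib label the changes were -0.02 (adjusted p = 0.96) and -0.42 (adjusted p = 0.266).

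With the luteolin+gefitinib label TMPO had log2 changes of -1.08 on the variant 2 probe (adjusted p = 0.00898) and -1.29 on the variant 1 probe (adjusted p = 0.0128), and both were called lowered. These calls rested on single arrays. Without DMSO replicate 1 the adjusted p of the variant 2 and variant 1 probes was 0.0633 and 0.0799, without DMSO replicate 2 that of variant 1 was 0.053, and without luteolin+gefitinib replicate 2 the log2 changes were -0.80 and -0.88 (adjusted p = 0.0429 and 0.0696). Over the limma alternatives that keep the labels and DMSO the adjusted p ran from 0.00234 to 0.0633 for variant 2 and from 0.00239 to 0.0799 for variant 1. Under normexp the changes were -0.91 and -0.83, each under 2-fold.

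LEMD3, also called MAN1, an inner membrane protein that restrains SMAD signaling, fell with the gefitinib label. Its probe (chr12:63928057-63928116, hg18) had a relative signal of 0.09 and 0.24 at 0 h, 0.29 and 0.15 with DMSO, 0.43 and 0.10 with the luteolin label, -2.85 and -3.80 with the gefitinib label, and 0.71 and 0.20 with the luteolin+gefitinib label. The 2 arrays of the gefitinib label were far below the other 8, which lay between 0.09 and 0.71. Their processed signal was 90.5 and 45.1, so the low values rest on dim spots. The fall against DMSO was 11.7-fold, or -3.54 ± 0.31 on the log2 scale (SE, adjusted p = 0.000163), and under normexp the log2 change was -2.69. The luteolin label differed from DMSO by 0.04 on the log2 scale, with a 95% interval from -0.67 to 0.76, and the luteolin+gefitinib label by 0.23, with an interval from -0.48 to 0.95. The log2 difference of the gefitinib label was -3.14 from DMSO within slide 2 and -3.89 from the 0 h array within slide 1.

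EMD, which encodes emerin, was not called in any comparison with DMSO. Its relative signal (probe at chrX:153262730-153262789, hg18) was -0.52 and -0.51 at 0 h, 0.56 and 0.05 with DMSO, -0.25 and 0.05 with the luteolin label, 1.07 and 0.42 with the gefitinib label, and 0.12 and 0.42 with the luteolin+gefitinib label. The spread of the DMSO pair was as wide as the distance to the drug-labelled means, which differed from DMSO by -0.40, 0.44 and -0.03 on the log2 scale (adjusted p = 0.305, 0.185 and 0.925). Against 0 h, in contrast, EMD was 2.39-fold higher with the gefitinib label (adjusted p = 0.00515).

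BANF1, the small DNA-binding partner of LEM domains, had a relative signal (probe at chr11:65527889-65527948, hg18) of 2.39 and 2.43 with DMSO, 2.05 and 1.998 with the luteolin label, 3.30 and 3.02 with the gefitinib label, and 2.38 and 2.97 with the luteolin+gefitinib label. Both arrays of the gefitinib label were above all others. The log2 change with that label was 0.75 ± 0.21 (SE, adjusted p = 0.0171), past the adjusted p and under 2-fold. Under quantile normalization this change was 0.36 (limma, adjusted p = 0.108) and no longer passed. The luteolin label was at -0.39 (adjusted p = 0.216) and the luteolin+gefitinib label at 0.26 (adjusted p = 0.333).

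SUN2, the inner membrane anchor of nesprins, had a probe (chr22:37461906-37461965, hg18) with a processed signal of 37.8 to 156.4. Its relative signal was -4.12 and -4.31 at 0 h, -3.11 and -3.65 with DMSO, -3.43 and -3.58 with the luteolin label, -3.45 and -4.05 with the gefitinib label, and -3.74 and -3.77 with the luteolin+gefitinib label. Its log2 changes against DMSO of -0.13, -0.37 and -0.38 did not pass the test (adjusted p = 0.75, 0.227 and 0.244). With normexp the last 2 became 0.19 and 0.11, so the data give no direction for SUN2.

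**Figure D2:**
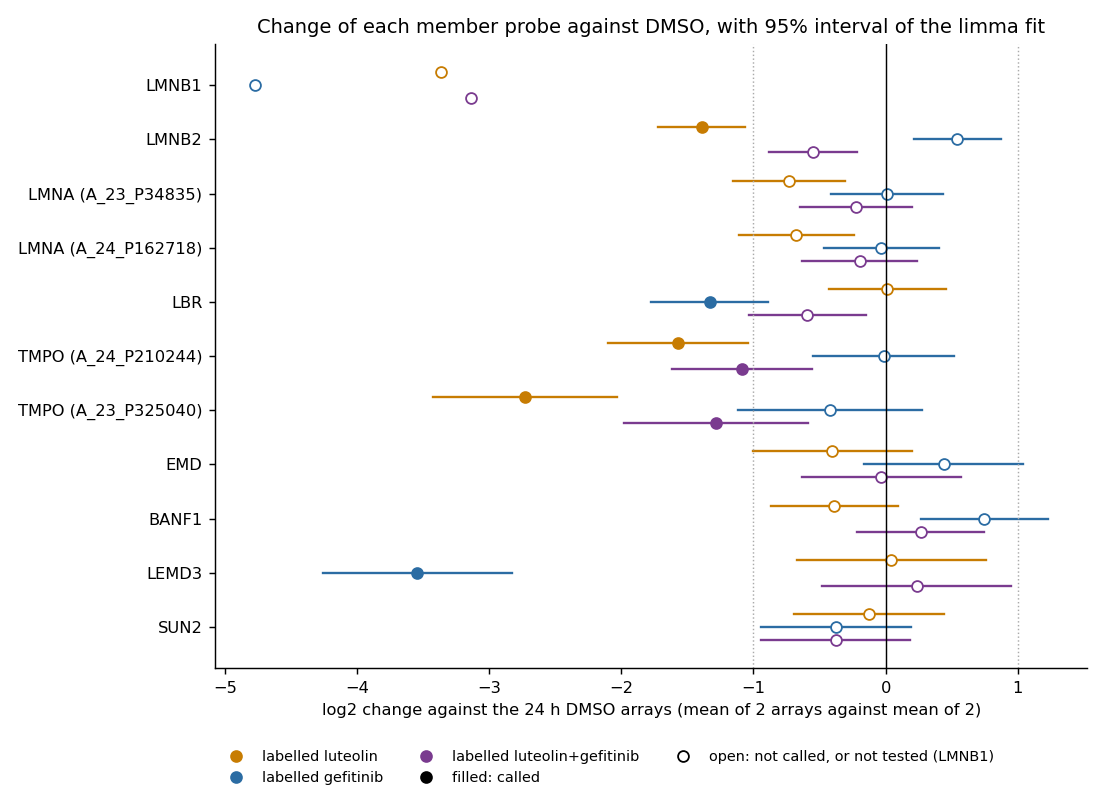
Log2 change of each member probe against the DMSO arrays (x axis) for the 3 drug labels, with the 95% interval of the limma fit as a line; filled points are called, open points are not, and LMNB1 was not tested. Filled points for LMNB2 and TMPO belong to the luteolin label, those for LBR and LEMD3 to the gefitinib label, and TMPO is the member with 2 drug labels called.

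Counted by gene, with LMNB1 left out and the probe with the highest mean signal standing for each gene, 2 of 8 members were called lowered with the luteolin label (LMNB2 and TMPO), where 6.17% of the 19718 genes tested were. With the gefitinib label 2 of 8 were called lowered (LBR and LEMD3), where the share of all genes was 14.3%, and with the luteolin+gefitinib label 1 of 8 was (TMPO), where it was 7.69%. By limma 0 of 8 members were called raised with any of the 3 labels, where 7.22%, 15.6% and 12.1% of all genes were. At the adjusted p alone, 0, 2 and 0 members were higher, where 14.3%, 32.9% and 25.1% of all genes were. The methods' 1-sample test, set here against the DMSO mean, called 0 of the 19718 genes after adjustment, so its 0 members say nothing about them. Unadjusted it called 0 members raised, beside 700, 1098 and 609 of all genes. With 8 genes, counts of 1 and 2 do not set the members apart from the shares of all genes. The median log2 change of the 8 members was -0.39, -0.00 and -0.30, beside 0.08, 0.22 and 0.16 for all genes. Quantile normalization moved the medians of all genes to 0.05, 0.05 and 0.01, and normexp moved them to 0.11, 0.37 and 0.29, so each change is relative to these shifts.

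After 24 h with DMSO alone, limma called 0 of 8 members against 0 h, where 0.0254% of genes were called raised and 0.0101% lowered. The 1-sample test called 0 members in either direction, beside 0 of all genes after adjustment and 29 raised and 79 lowered unadjusted. EMD, at 0.82 on the log2 scale (adjusted p = 0.634), and SUN2, at 0.84 (adjusted p = 0.573), were the members with an unadjusted p under 0.05. Both were higher, and the share of all genes at that threshold was not counted. Against 0 h the falls of LMNB2 and TMPO with the luteolin label and of LBR and LEMD3 with the gefitinib label had log2 changes of -1.46, -1.64, -1.13 and -3.49, with adjusted p between 0.000154 and 0.0025. These comparisons use the same drug-treated arrays as those with DMSO.

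Setting the drug-labelled groups against each other gave the order of the labels for each member. Between the gefitinib and luteolin labels, 3 of 8 members were called higher with the gefitinib label, where 18.5% of all genes were, and 2 were called lower, where 18.1% were. LMNB2 was 3.82-fold higher (adjusted p = 6.23e-05), TMPO 2.94-fold on the variant 2 probe (adjusted p = 0.000846) and 4.95-fold on the variant 1 probe (adjusted p = 0.000485), and BANF1 2.20-fold (adjusted p = 0.00226). LBR was 2.54-fold lower (adjusted p = 0.00072) and LEMD3 12.02-fold lower (adjusted p = 9.9e-05). The BANF1 call was lost under quantile normalization, where its log2 difference was 0.74 (adjusted p = 0.00691, in a range from 0.000281 to 0.0185), and without gefitinib replicate 1, where it was 0.997, just under 2-fold. LMNB1 was 2.66-fold lower with the gefitinib label, and under normexp this log2 difference shrank from -1.41 to -0.52.

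Between the luteolin+gefitinib and gefitinib labels, LEMD3 was 13.7-fold higher in the combination (adjusted p = 8.43e-05), the member called of 8 in that direction, where 17.2% of genes were. LMNB2 was 2.13-fold lower (adjusted p = 0.000606) and TMPO 2.10-fold lower on the variant 2 probe (adjusted p = 0.00625), where 9.76% of genes were called lower. The variant 1 probe of TMPO differed by -0.86 on the log2 scale (adjusted p = 0.046) and was not called. LMNB1 was 3.11-fold higher in the combination than with the gefitinib label. The LMNB2 and TMPO calls lie near 2-fold: under normexp the log2 differences were -0.95 and -0.93, and that of TMPO was -0.86 with the slide as a block, -0.88 without gefitinib replicate 2 and -0.79 without luteolin+gefitinib replicate 2. Between the luteolin+gefitinib and luteolin labels 0 of 8 members were called, where 11.3% of genes were called raised and 9.75% lowered. At the adjusted p alone limma had 2 members higher and 1 lower, where 23.5% and 18.3% of genes were. The variant 1 probe of TMPO, which does not stand for its gene in these counts, was 2.72-fold higher in the combination (adjusted p = 0.0074), and the variant 2 probe differed by 0.49 on the log2 scale (adjusted p = 0.122).

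Additivity on the log2 scale asks whether the change with both drugs equals the sum of the changes with each. For LMNB1 the sum of the single-label changes was -8.14 and the change with the luteolin+gefitinib label was -3.14, a departure of 5.00, for which it was chosen. Leaving out 1 luteolin+gefitinib array at a time gave 4.42 and 5.58, slide 2 alone gave 5.36, and normexp gave 3.80. LEMD3 departed by 3.74 ± 0.44 (SE, adjusted p = 0.000789): the sum was -3.50 and the observed change was 0.23. Under normexp the departures of LEMD3 and of the variant 1 probe of TMPO were 2.87 and 1.301. LEMD3 was the one member of 8 past the test on the probe that stands for its gene, where 17.9% of all genes departed upward and 16.3% downward. The variant 1 probe of TMPO departed by 1.87 ± 0.43 (adjusted p = 0.012), whereas its variant 2 probe departed by 0.50 (adjusted p = 0.262), so the 2 probes fall on different sides of the threshold. LBR departed by 0.73 (adjusted p = 0.0724), LMNA by 0.50 (adjusted p = 0.175) and LMNB2 by 0.30 (adjusted p = 0.281). The other 3 members lay between -0.10 and 0.12. LBR passed the test without luteolin+gefitinib replicate 2 (0.94, adjusted p = 0.0223, in a range from 0.0223 to 0.18) and under normexp (0.73, adjusted p = 0.0496).

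**Figure D3:**
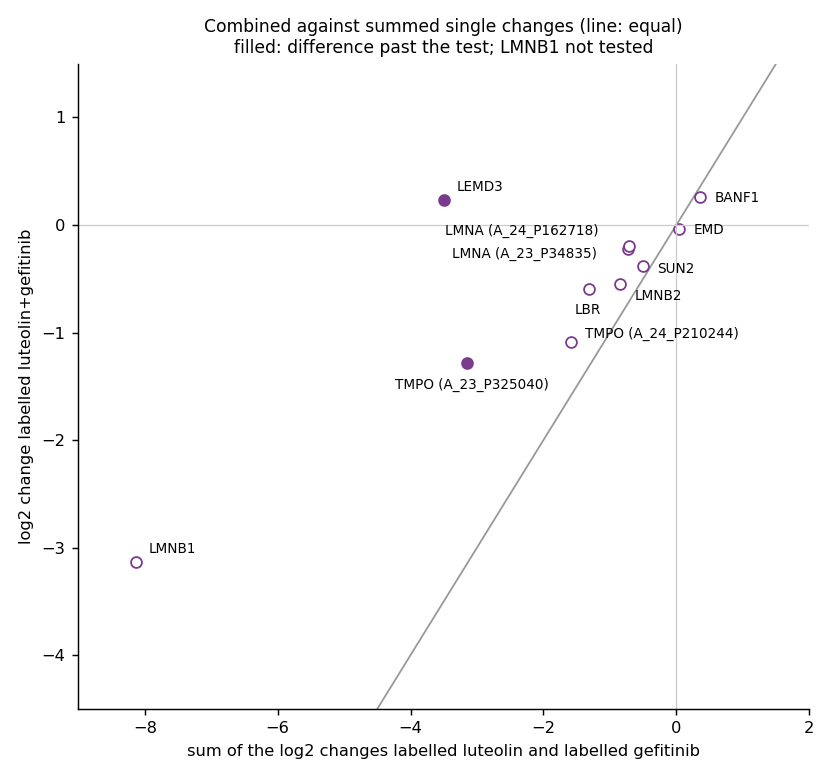
Log2 change against DMSO with the luteolin+gefitinib label (y axis) against the sum of the changes with the luteolin and the gefitinib label (x axis) for the 11 member probes; on the line both are equal. LMNB1, which was chosen for this departure and not tested, lies at a sum of -8.14 and a change of -3.14, and LEMD3 at -3.50 and 0.23.

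Under the treatments of the scanner file names the same 3 pairs of arrays change places. LMNB1 then had log2 differences from DMSO of -3.14 for luteolin, -3.36 for gefitinib and -4.77 for the combination, so that it was low with each drug as before, and its departure from additivity was 1.73. LEMD3 then fell with the combination (-3.54) and its departure turned to -3.82 (adjusted p = 0.000436). LMNB2 departed by 2.48 (adjusted p = 0.000178) and TMPO by 2.64 on the variant 2 probe (adjusted p = 0.000582). LBR departed by -0.75 (adjusted p = 0.0541). Which group holds the falls of LMNB2, TMPO, LBR and LEMD3, and the signs of the LEMD3 and LBR departures, thus depend on the labels.

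The genes with the pattern most like LMNB1 were ranked by the root mean square difference over the 10 arrays, after subtracting the mean of the DMSO arrays from each gene. Of 19702 genes with a value on every array, the 8 nearest included PCDH18, a protocadherin (0.67), PHACTR3, a regulator of protein phosphatase 1 and actin (0.80), CCNA2, which encodes cyclin A2 (1.13), CDC25A, a phosphatase that drives entry into S phase (1.14), and AURKA, a mitotic kinase (1.15), and 3 transcripts known by a sequence identifier alone. PHACTR3 differed from DMSO by -3.11, -3.09 and -2.77 and CCNA2 by -2.97, -2.83 and -1.78 with the luteolin, gefitinib and luteolin+gefitinib labels. PCDH18 was well above background on 6 of the 10 arrays, and the 3 transcripts known by an identifier on 5, 4 and 4. Their lowest values are therefore not well above background, and their likeness to LMNB1 rests partly on such values. CDC25A was well above background on 9 arrays, and PHACTR3, CCNA2 and AURKA on all 10. Of the other members the nearest was LEMD3, at rank 912 with a difference of 2.26, followed by LBR at rank 1830 and TMPO at rank 2019, and LMNB2 was at rank 5332. The measure depends on size, so a gene with the same direction and a smaller change counts as less alike. Likeness of this kind describes 10 arrays in 5 groups.

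Other genes of the envelope were taken from lists that were chosen with earlier results of these data known. Their counts stand beside the shares and medians of all genes given above. Of 13 further proteins of the inner membrane and the LINC complex, 1, 0 and 2 were called lowered with the luteolin, gefitinib and luteolin+gefitinib labels and 0 raised. At the adjusted p alone, limma had 2, 1 and 1 higher, where 14.3%, 32.9% and 25.1% of all genes were. At that threshold 1, 2 and 3 were lower, where 11.8%, 22.1% and 16.2% of all genes were. NRM, the inner membrane protein nurim, fell by 1.28 on the log2 scale with the luteolin label (adjusted p = 0.00229), and SYNE1 and SYNE3, outer membrane partners of the SUN proteins, had log2 changes of -1.60 (adjusted p = 0.00103) and -2.08 (adjusted p = 0.00383) with the luteolin+gefitinib label. SYNE3 was well above background on 6 of the 10 arrays. The list's median changes were 0.39, -0.13 and -0.09.

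Of 10 genes for lamin maturation, phosphorylation and cleavage, 3, 2 and 4 were called lowered and 0 raised, with medians of -0.34, -0.26 and -0.08. At the adjusted p alone, limma had 0, 3 and 0 higher and 3, 3 and 4 lower. CCNB1, the cyclin of the mitotic kinase that disassembles the lamina, fell with each label, with log2 changes of -1.94, -1.86 and -2.06 (adjusted p = 0.00263, 0.00173 and 0.00204). CDK1, its kinase, fell by 2.82 with the luteolin label (adjusted p = 0.000899) and had a change of -1.05 with the luteolin+gefitinib label (adjusted p = 0.025), and VRK1, which phosphorylates BANF1, fell by 1.22 with the luteolin label (adjusted p = 0.00253). RCE1, the protease that trims farnesylated lamins, fell by 1.24 with the gefitinib label (adjusted p = 0.00252). CASP6, the caspase that cleaves lamin A, fell by 1.55 with the luteolin+gefitinib label (adjusted p = 0.00532).

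Among 30 nucleoporins, 4, 7 and 3 were called lowered with the 3 labels and 0 raised. At the adjusted p alone, limma had 1, 3 and 3 higher and 14, 12 and 10 lower. Their median changes were -0.54, -0.31 and -0.36. NUP210, an integral membrane nucleoporin, fell with each label, with log2 changes of -1.55, -1.20 and -1.18 (adjusted p = 0.00172, 0.00248 and 0.00427), and NUP153, which binds lamins at the nuclear basket, fell by 1.77 with the gefitinib label (adjusted p = 0.000191). Of 10 heterochromatin partners of the lamina, 2, 3 and 0 were called lowered and 0 raised, with medians of -0.36, -0.00 and -0.15. At the adjusted p alone, limma had 0, 2 and 1 higher and 5, 3 and 2 lower. SUV39H1, a histone H3 methyltransferase of heterochromatin, had log2 changes of -1.16 with the luteolin label (adjusted p = 0.00643) and -3.34 with the gefitinib label (adjusted p = 5.93e-05), and its relative SUV39H2 had -1.74 (adjusted p = 0.0013) and -1.43 (adjusted p = 0.00144). CBX5, the heterochromatin protein 1 that binds LBR, was named after its values were seen. It had log2 changes of -0.84, -0.05 and 0.56 (adjusted p = 0.00926, 0.819 and 0.0314), under 2-fold and so not called. Of the 10 genes, 4 departed upward from additivity and 1 downward, where 17.9% and 16.3% of all genes did. CBX5 departed by 1.45 (adjusted p = 0.00296), SUV39H1 by 4.38 (adjusted p = 0.000153) and SUV39H2 by 2.57 (adjusted p = 0.000745).

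A list of proliferation genes was set beside the lamina genes. Of 18 such genes, 18 were called lowered with the luteolin label, 6 with the gefitinib label and 9 with the luteolin+gefitinib label, and 0, 2 and 0 were called raised, with medians of -2.05, 0.12 and -1.01. RRM2, a subunit of ribonucleotide reductase, fell by 4.69 on the log2 scale with the luteolin label (adjusted p = 8.45e-05). CCNA2 fell with all 3 labels, with log2 changes of -2.97, -2.83 and -1.78 (adjusted p = 0.000414, 0.000144 and 0.00186), whereas E2F1 and TYMS rose with the gefitinib label, by 1.14 (adjusted p = 0.00728) and 1.15 (adjusted p = 0.00169). LMNB1 was lowest with the gefitinib label. There the list was split, with a median near 0, 6 genes called lowered (AURKA most, at -2.84 on the log2 scale) and 2 raised. LMNB2 and TMPO were lowest with the luteolin label, where all 18 genes had fallen. The part of cell division in the lamina values was not tested.

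**Figure D4:**
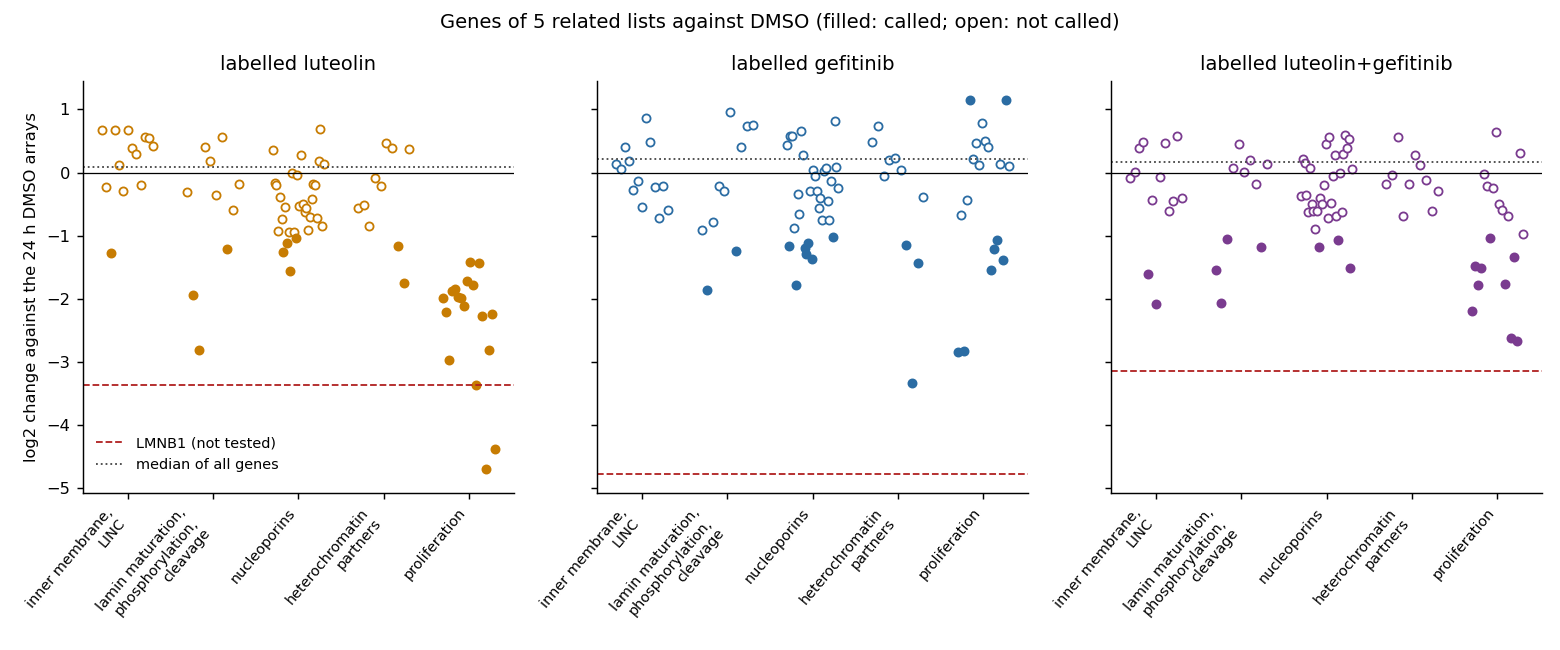
Log2 change against DMSO (y axis) of each gene of 5 related lists (x axis) for the 3 drug labels, with called genes filled; the dashed line is LMNB1 and the dotted line the median of all genes tested. With the luteolin label all 18 proliferation genes are filled and below 0, and with the gefitinib label LMNB1 at -4.77 lies below every listed gene.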

How the data were processed

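Total RNA of PC-3 cells was labelled with Cy3 after priming on the poly(A) tail and hybridized to 10 Agilent Whole Human Genome 4x44K arrays. The authors deposited the scanner text files, and the intensity used here, gProcessedSignal, is the background-subtracted spot brightness per the file headers, which name Agilent Feature Extraction 10.7.3.1 and hg18. The deposited table of values of the series held the same numbers for all 45015 spots (within 1e-04) and gave the same results. The study took fold changes against time zero with a 1-sample test.

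Here log2 intensities minus the 75th percentile of each array were fitted with limma 3.58.1 (R 4.3.3) over the 5 groups of the labels. Probes had to exceed background clearly on each of the 2 arrays of some group, which left 28776 of 41000 probes, and p-values were adjusted over these by Benjamini-Hochberg. The fit had 5 residual and 3.36 prior degrees of freedom. A call needed 2-fold or more with an adjusted p below 0.05, and departures from additivity needed the adjusted p alone. In counts of genes, 19718 were tested, each by its probe of highest mean signal, since 5659 genes have several.

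On simulated data for luteolin against DMSO (28754 probes), 82% of 100 probes changed by 2 on the log2 scale and 94% of 100 changed by 3 were called, and 5 unchanged probes were. Arrays have no read depth, so their number, 2 per group, limits the precision. Member genes and lists were chosen with earlier results of these data known. All members are named. Genes of the other lists are named from those called against DMSO, up to 4 that rose most and up to 4 that fell most, and CBX5 was named after its values were seen. TMEM201 and ANKLE2 matched no symbol of the array. Some marker genes of the cell line are not reported here. The 8 genes most like LMNB1 were taken by root mean square difference.

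Alternatives were normexp background correction, quantile normalization, other filters on dim probes, the table of values, a block for replicate number or for slide, a fit to the compared groups alone, the treatments in the file names, 0 h as the reference, the median over probes, no minimum fold, the methods' 1-sample test, and leaving out each array in turn. Differences within slides were added after seeing the data.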

Additional observations from a re-analysis of the deposited data

Results flagged for a closer look

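LEMD3 was marked because the change with both drugs differed from the sum of the single changes in a test of the difference itself, by 3.74 on the log2 scale (limma, adjusted p = 0.000789). TMPO was marked in the same way on its variant 1 probe (A_23_P325040), by 1.87 (limma, adjusted p = 0.012). Both directions follow the sample labels, and under the file names the LEMD3 departure was -3.82.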

How the results depend on the processing

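The LMNB2 and TMPO calls with the luteolin label and the LBR and LEMD3 calls with the gefitinib label kept their direction and their side of the threshold in every limma alternative that keeps the labels, those that leave out 1 array included, and the cause of the changes below was not tested. With 2 arrays per group, a lone array left in a group was assumed to vary like the others.

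Counts of members called changed as follows. Under normexp 0 members were lowered with the luteolin+gefitinib label, 2 departed upward from additivity (1 in the report), and 7 of the genes in the other envelope lists were lowered with the gefitinib label (12 in the report). Of all 19718 genes, 744, 2884 and 1334 were called in these ways under normexp. With 0 h as the reference 1 member, EMD, was raised with the gefitinib label, beside 2857 of all genes. With the median over probes 2 members departed upward, and 2 and 1 genes of the other lists were raised with the gefitinib and luteolin+gefitinib labels. Of all genes, 3555, 2939 and 2348 were called in these ways. Without a minimum fold 2 members were raised with the gefitinib label and 3 lowered with the luteolin+gefitinib label, beside 32.9% and 16.2% of all genes. Between drug labels 14 member differences passed (8 in the report), where 18.3 to 33.2% of all genes did in each direction. In the other lists 3, 9 and 5 genes were raised with the 3 labels, beside 14.3%, 32.9% and 25.1% of all genes. There 23, 20 and 19 were lowered, beside 11.8%, 22.1% and 16.2% of all genes. The methods' 1-sample test called 0 members and 0 genes of these lists after adjustment, but it then called 0 of the 19718 genes against DMSO, so these counts say nothing about them. Unadjusted it called 1, 1 and 0 members and 1, 5 and 4 genes of the lists lowered, beside 424, 1172 and 360 of all genes. It also called 4 member differences between drug labels, where 505 to 1623 of all genes were called in each direction of a pair. Under the file names 1 member was lowered with luteolin and 2 with the combination, beside 1517 and 2814 of all genes. There 4 members departed upward from additivity and 1 downward, beside 3849 and 4893 of the 19718 genes tested. Leaving out 1 array at a time gave 2 to 2 members lowered with the luteolin and with the gefitinib label, 0 to 1 with the luteolin+gefitinib label, 1 to 2 departing upward and 7 to 8 differences between drug labels. In the other lists it gave 7 to 12, 10 to 12 and 7 to 9 genes lowered and 0 to 1 raised with the gefitinib label.

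Signs turned mostly for values near 0. Under normexp TMPO (variant 2) was at 0.014 with the gefitinib label and SUN2 at 0.194 and 0.115 with the gefitinib and luteolin+gefitinib labels. LMNA with the gefitinib label was at -0.63 under quantile normalization and -0.012 with the median over probes on its first probe, at 0.066 with the slide as a block on its second, and at -0.057 and 0.052 within slide 2. Against 0 h, EMD was at 0.42 and 0.78 with the luteolin and luteolin+gefitinib labels, SUN2 at 0.71, 0.46 and 0.46, and LMNA (A_24_P162718) at 0.076 with the gefitinib label. BANF1 was at -0.012 within slide 2 and EMD at 0.37 within slide 3 with the luteolin+gefitinib label, and LBR at -0.059, LEMD3 at -0.057 and SUN2 at 0.070 within slide 3 with the luteolin label. Leaving out 1 array at a time, values with the luteolin label ran from -0.053 to 0.078 for LBR, from -0.12 to 0.21 for LEMD3 and from -0.39 to 0.14 for SUN2. With the gefitinib label they ran from -0.086 to 0.11 for LMNA (A_23_P34835), from -0.21 to 0.15 for LMNA (A_24_P162718) and from -0.20 to 0.17 for TMPO (variant 2). With the luteolin+gefitinib label they ran from -0.287 to 0.22 for EMD, from -0.029 to 0.56 for BANF1 and from -0.017 to 0.49 for LEMD3.

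Under the file names luteolin against DMSO was -0.59 for LBR and 0.26 for BANF1. Gefitinib against DMSO was -1.39 for LMNB2, -0.73 for LMNA, 0.012 for LBR, -0.40 for EMD, -0.39 for BANF1 and 0.042 for LEMD3. The combination against DMSO was 0.54 for LMNB2, 0.0097 for LMNA, 0.44 for EMD and -3.54 for LEMD3. Gefitinib against luteolin was -0.84 for LMNB2, 0.60 for LBR, -0.49 and -1.44 for TMPO and -0.65 for BANF1. The combination against gefitinib was -1.41 for LMNB1, 1.93 for LMNB2, 1.56 and 2.31 for TMPO and -3.59 for LEMD3. The departure from additivity was -0.75 for LBR and -3.82 for LEMD3.

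Counts over all genes, which set the background shares, moved by over 1.5 times under some settings. Normexp called 907 raised and 789 lowered with the luteolin label (1423 and 1216 in the report) and 744 lowered with the luteolin+gefitinib label (1517), and of the genes called it had 66.3% and 71.3% raised with the gefitinib and luteolin+gefitinib labels, where the report's setting had 52.3% and 61.1% and quantile normalization 40.4% and 45.9%. Without DMSO replicate 1 or 2 the luteolin label had 924 and 908 raised, and 1852 and 1726 genes departed downward (3213). Without luteolin replicate 2 it had 713 lowered.

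Replicate numbers were not taken to pair the samples, since not every pair of groups had deviations of same-numbered arrays that correlated over 0.1: the correlations ran from -0.10 to 0.29 over the 10 pairs of groups, and those of DMSO with the other groups from 0.101 to 0.293. With the replicate number as a block no member call changed, LMNB2 was at -1.39 with the luteolin label, and 1436 genes were raised and 1253 lowered with it.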
